A study of Solanum tuberosum with 8 samples.

Results

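The auxin response genes described here are 1 gene of the GH3 family, PGSC0003DMG400019274 (GH3.6), and 3 genes of the SAUR family, PGSC0003DMG400003228, PGSC0003DMG400003227 and PGSC0003DMG400028254. They are 4 of the 42667 genes in the deposited expression table and were taken by their identifiers from the study's list of genes with the largest changes after cutting in the cultivar X2. The SAUR genes are called SAUR-3228, SAUR-3227 and SAUR-28254 below, after the ends of their identifiers. Their names and families are those the study gives, and their positions and sequences were not analysed here. The paper reports more SAUR genes as up-regulated after cutting than are described here. Any further SAUR gene was not identified by its annotation and is not covered.

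RNA was sequenced from potato tubers of the cultivars X2 (Xingjia 2, a tetraploid cultivar) and D6 before cut-wounding (0 h) and 4, 12 and 24 h later. According to the methods, X2 tubers were stored for about a month after harvest, cut across, kept warm and humid, and sampled as small blocks from the epidermis to the pith, each biological replicate mixing several tubers. The methods describe no D6 tubers, so whether these were handled in the same way is not stated. The 11 libraries of X2 comprise 3 at 0, 4 and 12 h and 2 at 24 h, and the 10 libraries of D6 comprise 1 at 0 h and 3 at each later hour. The 0 h tubers are the only controls, and no group of tubers was kept uncut to the later hours, so that the effect of cutting and that of time cannot be told apart.

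Auxin, chiefly indole-3-acetic acid (IAA), acts by the destruction of Aux/IAA repressors, which frees the auxin response factors (ARFs) bound to them to control auxin-responsive genes. GH3 and SAUR genes are classical early targets of this pathway. GH3 enzymes of the IAA-amido synthetase group join IAA to amino acids and thereby lower the pool of free auxin. SAUR proteins are small, short-lived products of auxin-induced transcripts, and several of them in Arabidopsis promote cell expansion by inhibiting a group of protein phosphatases.

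Reads on genes numbered 29746314 to 44921591 per library in X2 and 24226307 to 35649617 in D6. FPKM, the fragments on a gene scaled by its length and by the library's reads, was used as deposited. The whole reads behind each value were recovered from the steps between low values, and a group with 3 reads or fewer in every library was treated as at the detection limit. A fold against such a group is a lower bound, computed from the FPKM of 3 reads in each library, and like all intervals on reads it covers counting error only. The name of replicate 2 of X2 at 4 h stands over 2 columns of the table, of which the first was used. The other may hold replicate 2 of X2 at 24 h, a name that no column carries. In the study's list of strongly changed genes, the 24 h mean equals that of the 2 named libraries, within 0.1%, in only 15 of 662 genes. The name of the unused column does not settle what it holds, so it was left out, and every X2 value at 24 h rests on the 2 named libraries. Of the tuber and leaf markers sought, a single patatin gene and a single chlorophyll a/b-binding gene could be found by description, both in lists the study chose for their change. The patatin gene, which encodes a tuber storage protein, ranged from 6.02 to 29.1 FPKM in X2 at 0 h, was 0.191 and 0.206 there at 24 h, and lay between 0.104 and 5.04 in D6 at 24 h. The chlorophyll a/b-binding gene ranged from 0 to 0.0951 in X2 at 0 h, was 5.26 and 5.59 there at 24 h, and reached 6.40 to 17.9 in D6 at 24 h. In X2 both genes therefore differed between 0 and 24 h. In D6 the patatin gene was 11.8 in the single 0 h library and 0.287 to 15.2 at 12 h, so these hours overlapped. The part of both genes in the results was not tested. In such whole-tissue samples, more cells expressing a gene and more RNA per cell cannot be told apart.

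In both cultivars the 4 genes were low at 0 h, and they reached their highest means at different hours. By group means, GH3.6 was highest at 12 h in X2 and at 4 h in D6. By medians it was highest at 24 h in both, at 9.35 FPKM in X2 and 34.9 in D6. Its libraries of 12 and 24 h in X2 and of 4, 12 and 24 h in D6 overlapped, so its peak hour is not resolved. SAUR-3228 and SAUR-3227 were highest at 4 h in both cultivars, whereas SAUR-28254 stayed at the detection limit at 4 h and was highest at 24 h in both. The study had listed the genes for their change against 0 h in X2, so the X2 values against 0 h are given as a description, without a test.

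**Figure D1:**
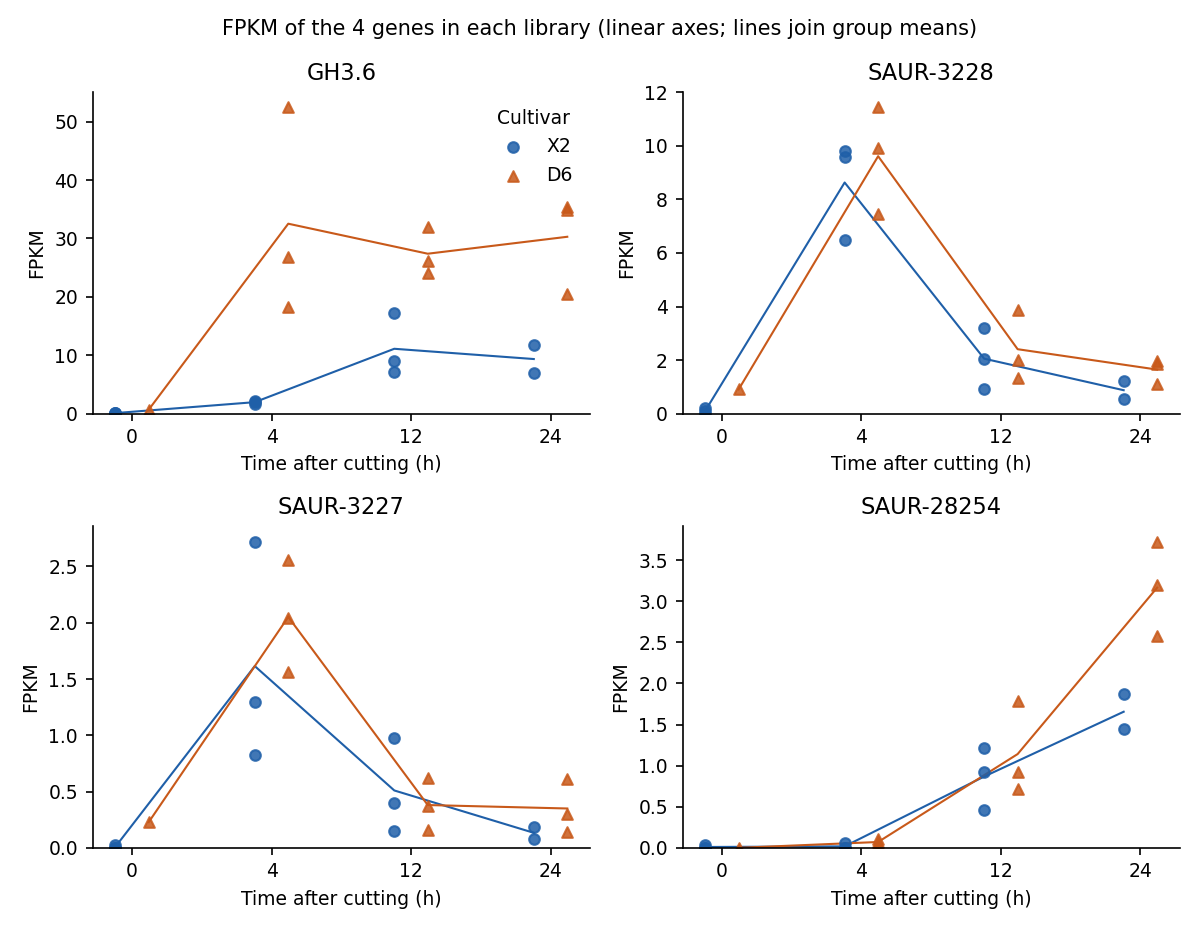
FPKM (vertical axes, linear) of GH3.6, SAUR-3228, SAUR-3227 and SAUR-28254 by time after cutting in hours, with 1 point for each library, circles for X2 and triangles for D6, and lines joining the group means. The D6 libraries of GH3.6 lie above all X2 libraries from 4 h on, with 18.3 as the lowest of D6 and 2.16 as the highest of X2 at 4 h.

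GH3.6 was the most abundant of the 4 genes at 12 and 24 h in both cultivars. In X2, its FPKM at 0 h was 0.127, 0.0419 and 0.0859, from 15, 7 and 12 reads. At 4 h it was 2.16, 1.71 and 2.002. The libraries of 12 h had 17.2, 8.97 and 7.16, and those of 24 h had 6.91 and 11.8. Every X2 library of 4, 12 and 24 h thus lay above every 0 h library, and the 12 h libraries lay above those of 4 h. The means were 0.0848 ± 0.0424 at 0 h (SD, n = 3), 1.96 ± 0.225 at 4 h (SD, n = 3) and 11.1 ± 5.34 at 12 h (SD, n = 3). Against 0 h, the mean was 23.1-fold higher at 4 h, 130.9-fold at 12 h and 110.1-fold at 24 h. Median-of-ratios size factors were 0.785 to 0.791 in X2 at 0 h and 1.13 to 1.15 at 4 h. Folds of all 4 genes against 0 h in X2, given on FPKM as deposited, would be smaller with them. On log2(FPKM + 0.1), GH3.6 at 4 h had a log2FC of 3.50 as deposited and 3.15 with size factors. With 1 or 0.01 added to FPKM in place of 0.1, it was 1.44 or 4.48, and that of SAUR-3228 was 3.12 or 7.14. The size of these changes thus depends strongly on the added value, while their direction does not.

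In D6, the single 0 h library had an FPKM of 0.678 for GH3.6, from 80 reads, with an exact Poisson 95% interval of 0.538 to 0.844. The libraries of 4 h had 18.3, 52.5 and 26.8, those of 12 h had 24.1, 31.9 and 26.2, and those of 24 h had 20.5, 34.9 and 35.5. The libraries of the later hours overlapped one another, and all lay far above the 0 h library. The means were 32.5 ± 17.8 at 4 h (SD, n = 3), 27.4 ± 4.07 at 12 h (SD, n = 3) and 30.3 ± 8.49 at 24 h (SD, n = 3), which were 48.0, 40.4 and 44.7 times the 0 h value. With 1 library at 0 h these ratios have no replicate check.

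The changes after 4 h were tested with limma on log2(FPKM + 0.1) over all genes whose FPKM averaged 0.5 or more across the libraries compared. A gene was called when |log2FC| was 1 or more and its unadjusted p was 0.01 or less. From 4 to 12 h in X2, GH3.6 was up-regulated with a log2FC of 2.35 (SE 0.29, limma, Benjamini-Hochberg adjusted p = 0.000183). These X2 libraries also took part in the study's choice of the genes, through their change against 0 h. From 12 to 24 h in X2 the log2FC was -0.19, with a 95% interval of -1.13 to 0.74. In D6 it was -0.12 from 4 to 12 h, with an interval of -0.92 to 0.68, and 0.11 from 12 to 24 h, with an interval of -0.40 to 0.62. These 3 differences did not pass the test and were smaller than the spread between replicates.

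Whether the change from 4 to 12 h differed between the cultivars was tested as an interaction. The log2FC of GH3.6 from 4 to 12 h was lower in D6 than in X2 by 2.47 (interaction -2.47, SE 0.51, 95% interval -3.58 to -1.36, limma, Benjamini-Hochberg adjusted p = 0.0112). For the change from 12 to 24 h the difference was 0.31 (SE 0.49), which did not pass. Among all genes tested, 6.67% were called for the first difference and 3.75% for the second. GH3.6 was 1 of 4 genes of the group called for the first. For the second, 0 of the 3 tested were called by limma, 0 had an unadjusted p under 0.05 at any fold, and 0 were called with limma-voom on the recovered reads.

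GH3.6 was up-regulated in D6 relative to X2 at 4, 12 and 24 h after cutting. The log2FC of D6 against X2 was 3.85 at 4 h (SE 0.35, limma, Benjamini-Hochberg adjusted p = 0.00023), with means 16.6-fold apart. At 12 h it was 1.39 (SE 0.30, limma, Benjamini-Hochberg adjusted p = 0.00977), with means 2.47-fold apart. At 24 h it was 1.69 (SE 0.31, limma, Benjamini-Hochberg adjusted p = 0.0123), with means 3.24-fold apart. The cultivars did not overlap at any of these hours. Without X2 replicate 1 of 24 h, the 24 h difference was 1.31 and was no longer called, so this call depends on 1 of the only 2 X2 libraries named for that hour. At 0 h the single D6 library had 7.995 times the mean of X2 and lay above all 3 X2 libraries, a difference that was not tested.

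SAUR-3228 was higher at 4 h than at any other hour in both cultivars. In X2 its FPKM was 0.200, 0.0945 and 0 at 0 h, from 6, 4 and 0 reads. It was 6.48, 9.60 and 9.82 at 4 h, then 0.926, 2.04 and 3.19 at 12 h, and 0.533 and 1.21 at 24 h. In D6 the 0 h library had 0.902 from 27 reads, and the libraries of 4 h had 11.4, 9.93 and 7.47. Those of 12 h had 3.87, 1.34 and 2.01, and those of 24 h had 1.97, 1.12 and 1.84. The 4 h libraries lay above all others of their cultivar, and the later libraries still lay above those of 0 h. The mean of X2 was 88.0-fold higher at 4 h than at 0 h, 20.9-fold at 12 h and 8.91-fold at 24 h. In D6 the same ratios to the single 0 h library were 10.7, 2.67 and 1.82.

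From 4 to 12 h, SAUR-3228 was down-regulated in X2 with a log2FC of -2.15 (SE 0.39, limma, Benjamini-Hochberg adjusted p = 0.00146) and in D6 with a log2FC of -2.06 (SE 0.36, limma, Benjamini-Hochberg adjusted p = 0.00197). The difference between these changes was 0.09, with a 95% interval of -1.22 to 1.39. From 12 to 24 h the log2FC was -1.08 in X2 (95% interval -2.37 to 0.20) and -0.43 in D6 (95% interval -1.32 to 0.46), and neither passed the test. The log2FC of D6 against X2 was 0.16 at 4 h (95% interval -0.34 to 0.65), 0.25 at 12 h (95% interval -0.91 to 1.40) and 0.90 at 24 h (95% interval -0.04 to 1.84). The libraries of the cultivars overlapped at each of these hours.

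SAUR-3227 had the same order of hours at lower levels. In X2 it was covered by 0, 1 and 0 reads at 0 h, which is at the detection limit. At 4 h its FPKM was 0.828, 1.30 and 2.72, from 29, 41 and 91 reads. It was 0.151, 0.399 and 0.979 at 12 h and 0.184 and 0.0828 at 24 h. The 4 h mean was 1.62 ± 0.986 (SD, n = 3), at least 19.4-fold higher than at 0 h, and the highest 12 h library overlapped the lowest of 4 h. In D6 the 0 h library had 0.229 from 7 reads, and the libraries of 4 h had 2.56, 2.04 and 1.56. Those of 12 h had 0.617, 0.156 and 0.369, and those of 24 h had 0.299, 0.612 and 0.138. In D6 the 4 h libraries lay above all others, and the 12 and 24 h libraries overlapped the value of 0 h.

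From 4 to 12 h in D6, SAUR-3227 passed the FPKM filter only through its 4 h libraries, where it was high, so its test is given from the fit without that filter. There it was down-regulated with a log2FC of -2.26 (SE 0.43, limma, Benjamini-Hochberg adjusted p = 0.00481). In X2, in the fit with the filter, the log2FC was -1.59 (SE 0.58, limma, Benjamini-Hochberg adjusted p = 0.0397), which did not reach the threshold on the unadjusted p (0.0262). Without the filter it did not reach it either (SE 0.60, limma, unadjusted p = 0.0329, Benjamini-Hochberg adjusted p = 0.0645). Without the filter, the difference between the cultivars in this change was -0.67, with a 95% interval of -2.45 to 1.10, so that the call in D6 alone does not show that they differ. At 4 h the log2FC of D6 against X2 was 0.46 (95% interval -0.51 to 1.42). In the comparisons of 12 and 24 h the gene stayed under the FPKM filter and was not tested.

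SAUR-28254 differed from the other SAUR genes in its order of hours. In X2 it had 1, 0 and 0 reads at 0 h and 2, 0 and 0 reads at 4 h, and in D6 it had 0 reads at 0 h and 3, 2 and 1 at 4 h. All these groups were at the detection limit, so no fold between them can be given. In X2 its FPKM was 1.22, 0.464 and 0.921 at 12 h and 1.44 and 1.87 at 24 h. In D6 it was 0.712, 1.79 and 0.925 at 12 h and 3.19, 3.73 and 2.58 at 24 h. The 24 h libraries lay above those of 12 h in each cultivar, and the D6 libraries of 24 h lay above those of X2. The mean of X2 was at least 11.1-fold higher at 12 h and at least 21.1-fold higher at 24 h than at 0 h. In D6 the same bounds were 12.4 and 34.3, against a single library.

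From 4 to 12 h in D6, SAUR-28254 passed the FPKM filter only through its 12 h libraries, so its test is again given from the fit without the filter, where it was up-regulated (limma, Benjamini-Hochberg adjusted p = 0.00134). The 12 h mean was at least 11.1-fold higher. It was up-regulated again from 12 to 24 h with a log2FC of 1.48 (SE 0.32, limma, Benjamini-Hochberg adjusted p = 0.0101). In X2 the 12 h mean was at least 10.2-fold higher than that of 4 h, a comparison in which the gene stayed under the FPKM filter. Without the filter it was called there too (limma, Benjamini-Hochberg adjusted p = 0.000379). From 12 to 24 h in X2 the log2FC was 0.93, with a 95% interval of 0.02 to 1.84, and was not called. At 24 h the log2FC of D6 against X2 was 0.89 (SE 0.22, limma, Benjamini-Hochberg adjusted p = 0.0307), under the fold threshold of the call. Without D6 replicate 3 of 24 h it was 1.03 and was called. At 12 h the log2FC was 0.35, with a 95% interval of -0.62 to 1.31. The differences between the cultivars in the change from 4 to 12 h (-0.19) and from 12 to 24 h (0.54) did not pass.

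**Figure D2:**
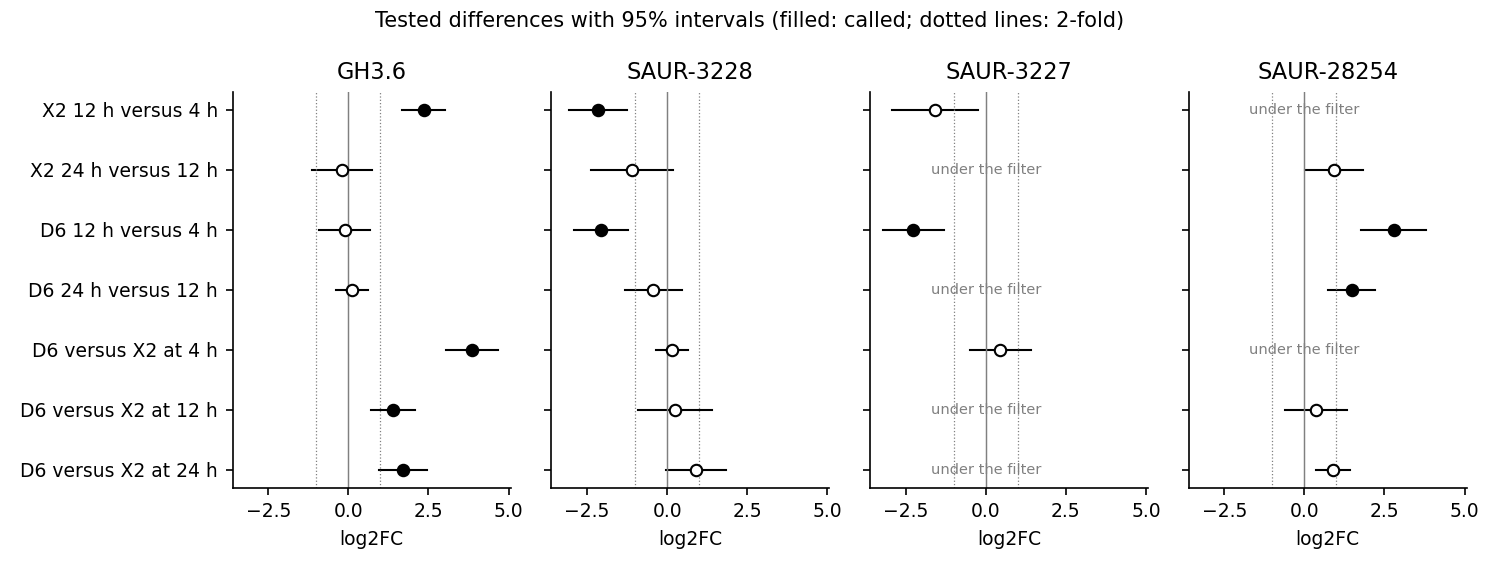
log2FC (horizontal axes) of each gene in the 7 tested comparisons between hours and between cultivars, with 95% intervals as bars, filled points for called differences, open points for others, all from the fit with the FPKM filter, which SAUR-3227 and SAUR-28254 passed from 4 to 12 h in D6 only through the hour where they were high, a solid line at 0 and dotted lines at a 2-fold change. GH3.6 is called in all 3 comparisons of D6 with X2, at 3.85, 1.39 and 1.69, and no SAUR gene is called in any of them.

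Counted over the genes that passed the filter, 2 of 3 were called from 4 to 12 h in X2, where 23.2% of all tested genes were called, and 3 of 4 in D6, where the share was 27.5%. Nothing is read from the D6 count, since SAUR-3227 and SAUR-28254 passed the filter there through the hour where they were high. Without the filter, 3 of the 4 genes were called from 4 to 12 h in X2, beside 18.4% of all genes, and 3 of 4 in D6, beside 20.9%. From 12 to 24 h, 0 of 3 were called in X2 by limma and 0 with limma-voom on the recovered reads, beside 12.1% of all genes. SAUR-28254 alone had an unadjusted p under 0.05 there (0.0457), at a log2FC of 0.93 that is under the fold threshold. In D6 it was 1 of 3, beside 10.6%. Between the cultivars, 1 of 3 was called at each of 4, 12 and 24 h, beside 18.1%, 12.6% and 11.8% of all genes. The gene called between the cultivars was GH3.6 at each hour. Against 0 h in X2, 3 of 3, 2 of 2 and 2 of 2 genes over the filter were past 2-fold at 4, 12 and 24 h, beside 52.6%, 55.2% and 52.9% of all genes, and nothing is read from these counts, since that contrast chose the genes.

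The order of hours within each gene can be compared through its mean relative to its own highest mean in the cultivar. At 4 h, GH3.6 was at 17.6% of its highest mean in X2, whereas 4 h had its highest mean in D6, where the libraries of the later hours overlapped those of 4 h. At 24 h it was still at 84.2% in X2 and 93.1% in D6. SAUR-3228 had fallen to 23.8% of its highest mean by 12 h in X2 and to 25.02% in D6. SAUR-28254 was at 1.08% at 4 h in X2 and at 2.24% in D6, both at the detection limit, and at 52.4% and 36.04% at 12 h.

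**Figure D3:**
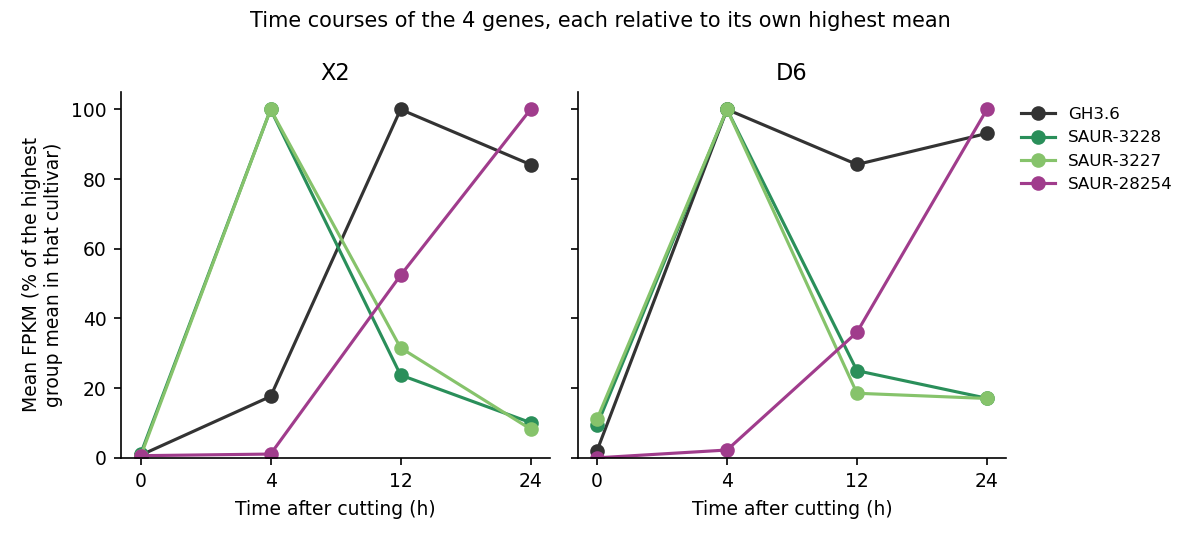
Mean FPKM of each gene at each hour after cutting as a percentage of its highest group mean in that cultivar (vertical axis), with X2 in the left panel and D6 in the right and 1 line for each gene. SAUR-3228 and SAUR-3227 share their highest mean at 4 h in both panels, and SAUR-28254 has its highest at 24 h. GH3.6 has its highest mean at 12 h in X2 and at 4 h in D6, but its libraries of 12 and 24 h in X2 and of 4, 12 and 24 h in D6 overlap.

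Over the 21 libraries, Pearson's r of log2(FPKM + 0.1) was 0.92 between SAUR-3228 and SAUR-3227, -0.07 between SAUR-3228 and SAUR-28254, and 0.67 between GH3.6 and SAUR-28254. Libraries of the same hour and cultivar are not independent points, and the coefficients describe these libraries only. The FPKM of SAUR-3228 was 7.83, 7.41 and 3.61 times that of SAUR-3227 in the X2 libraries at 4 h, and 4.47, 4.87 and 4.79 times in D6. SAUR genes form a large family of similar short genes, and how the counting treated reads that match several of them was not tested, so the separation of these genes is uncertain. Whether the counting used the strand is not given in the sources used here.

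For each gene, the 3 genes most like it by this r were listed among 20353 genes whose FPKM averaged 0.5 or more. GH3.6 was most like PGSC0003DMG400010076 (r = 0.991), PGSC0003DMG400017349, which the study places in the WRKY family (r = 0.987), and PGSC0003DMG400023578 (r = 0.985). The mean FPKM of PGSC0003DMG400010076 was 0.764, 4.43, 24.4 and 21.7 at 0, 4, 12 and 24 h in X2 and 1.81, 58.9, 56.5 and 81.8 in D6. It was low at 4 h in X2 and already high at 4 h in D6, as GH3.6 was. It was picked for this likeness over the same libraries, so nothing further is read from it. SAUR-3228 was most like PGSC0003DMG400012138 (r = 0.968), PGSC0003DMG400015874 (r = 0.968) and PGSC0003DMG400028498 (r = 0.966). SAUR-3227 was most like PGSC0003DMG400002618 (r = 0.936), PGSC0003DMG400019398 (r = 0.935) and the predicted gene Novel00737 (r = 0.934). SAUR-28254 was most like PGSC0003DMG400019100 (r = 0.976), whose mean FPKM in X2 was 1.12 before cutting, 1.65 by 4 h, 16.2 by 12 h and 34.2 by 24 h, and the predicted genes Novel00716 and Novel03006 (both r = 0.971). An r of at least 0.9 was reached by 523 genes for GH3.6, 545 for SAUR-3228, 68 for SAUR-3227 and 497 for SAUR-28254.

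The other auxin genes found by annotation in the study's lists are 15 Aux/IAA genes, 10 ARF genes and 1 gene described as an auxin-repressed protein. The study chose them as changed in X2, so their counts against 0 h are not independent evidence of a direction. Of these 26 genes, 23 were tested at each hour against 0 h in X2. At 4 h, 5 were called up-regulated and 8 down-regulated, beside 35.4% and 15.8% of all genes. At 12 h, 3 were up-regulated and 6 down-regulated, beside 36.6% and 17.5%, and at 24 h, 2 and 5, beside 33.5% and 17%. The down-regulated genes include PGSC0003DMG400001498 and PGSC0003DMG400016317, which passed the FPKM filter through the 0 h libraries, where they were high. At 12 h the same holds for the auxin-repressed gene PGSC0003DMG400004897, whose mean FPKM was 0.396 in X2 at that hour. The median log2FC of the tested list genes was -0.38, -0.09 and -0.38, while that of all tested genes was 0.47, 0.47 and 0.37. Scaling by median-of-ratios size factors shifted the median of all genes by -0.54, -0.52 and -0.40 at 4, 12 and 24 h, and the calls of the list were then 3 up-regulated and 11 down-regulated, 3 and 8, and 2 and 7.

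**Figure D4:**
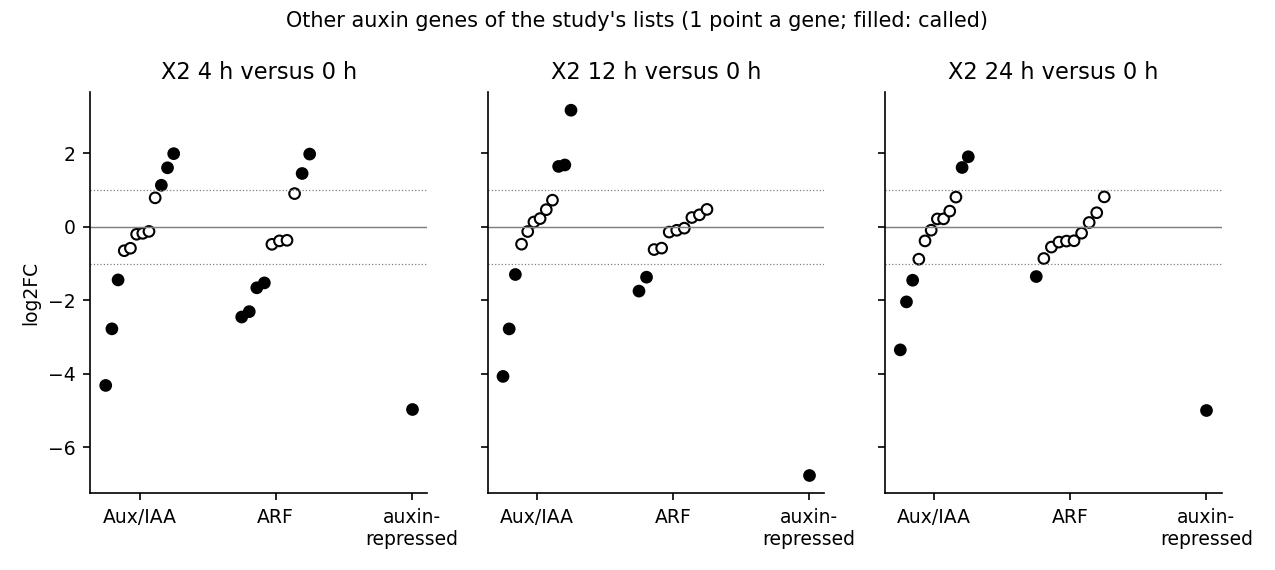
log2FC against 0 h in X2 (vertical axis) of the tested Aux/IAA, ARF and auxin-repressed genes at 4, 12 and 24 h after cutting, 1 point for each gene, filled where called, with dotted lines at a 2-fold change. At 4 h the called genes are 5 up-regulated and 8 down-regulated, and the auxin-repressed gene is the lowest point at each hour.

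The genes named next had the largest called changes of their family among genes with a group mean of 5 FPKM or more and libraries that did not overlap. Among these Aux/IAA repressors, PGSC0003DMG402002635 had the largest rise at 4 h, with an FPKM of 12.4 ± 2.62 at 0 h and 48.9 ± 3.09 at 4 h (SD, n = 3 each; log2FC 1.99, SE 0.15). It was down-regulated again from 4 to 12 h, by a log2FC of -1.27 in X2 and -1.56 in D6, as SAUR-3228 was. PGSC0003DMG400019333 had the largest rise at 12 h, from 0.534 ± 0.0954 to 5.58 ± 0.380 (SD, n = 3 each; log2FC 3.17, SE 0.16), and was up-regulated from 4 to 12 h in both cultivars, with a log2FC of 1.57 in X2 and 1.98 in D6. Above that level, the predicted gene Novel01450 had the largest fall of the family, with a log2FC of -1.44, -1.30 and -1.45 after 4, 12 and 24 h. Below it, 2 Aux/IAA genes had larger falls, PGSC0003DMG400001498 with -4.32, -4.07 and -3.35 and PGSC0003DMG400016317 with -2.78, -2.78 and -2.04. Both stayed under the FPKM filter from 4 to 12 h in X2. Against 0 h they passed it through the 0 h libraries, where they were high, so these falls are given as a description.

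Of the ARF transcription factors above that level, PGSC0003DMG400028826 had the largest rise at 4 h, from 20.5 ± 1.48 to 81.1 ± 3.62 (SD, n = 3 each; log2FC 1.98, SE 0.07), and was down-regulated from 4 to 12 h in X2 (log2FC -1.73) and D6 (log2FC -2.02). PGSC0003DMG400008081 had the largest fall at 4 and 12 h, with a log2FC of -2.45 and -1.75, and PGSC0003DMG400014179 at 24 h, with -1.35. The auxin-repressed gene PGSC0003DMG400004897 fell from 52.0 ± 14.7 at 0 h to 1.68 ± 0.926 at 4 h and 0.396 ± 0.199 at 12 h (SD, n = 3 each), a log2FC of -4.97 and -6.75. At 12 h it passed the FPKM filter only through the 0 h libraries, where it was high, so that fall is given as a description. Its log2FC at 24 h was -4.98. In D6 its single 0 h library had 7.49, and the later libraries ranged from 0.295 to 1.24.

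In D6, which the methods do not name in the choice of the list, 7 of 24 tested list genes were up-regulated and 4 down-regulated from 4 to 12 h, beside 15% and 12.5% of all genes. Nothing is read from these counts, since PGSC0003DMG400013765, called down-regulated, passed the FPKM filter only through its 4 h libraries. Without the filter, 8 of 26 list genes were up-regulated and 4 down-regulated, beside 20.9% of all genes in either direction. From 12 to 24 h, 1 was up-regulated and 2 down-regulated of 23 tested, beside 6.53% and 4.04%. Between D6 and X2, 3 list genes were called higher and 1 lower in D6 at 4 h among 24 tested, beside 9.79% and 8.28% of all genes. Nothing is read from this count either, since PGSC0003DMG400013765, called higher, passed the filter only through its D6 libraries. Without the filter, 3 of 26 list genes were called higher and 1 lower, beside 2581 and 2146 of 29274 genes.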

How the data were processed

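Gene expression in potato tubers after cutting was analysed from the deposited FPKM of 21 libraries. Reads with adapters, poly-N or low quality had been discarded by the authors, who mapped the others to SolTub_3.0 by HISAT, counted them per gene by featureCounts v1.5.0-p3 and derived FPKM from gene length and mapped reads. The labels name other tools and a mouse build, and the methods of the paper were followed. For genes predicted by the authors, the deposited file also gives lengths in bases.

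Columns were assigned by name. The first column named as replicate 2 of X2 at 4 h was taken because the study's listed 4 h means are then matched in 662 of 662 genes, so this choice rests on values as well. 1 column was not used, and it may hold replicate 2 of X2 at 24 h, which no column is named for. Reads were recovered for the 27056 genes with a value above 0 in 8 or more libraries, and 100% of their values came within 0.05 reads of a whole number. Steps were chosen for this, so it is no separate check.

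Groups were compared with limma 3.58.1 in R 4.3.3 (linear model and trended eBayes) on log2(FPKM + 0.1), keeping genes whose FPKM averaged 0.5 or more across the libraries compared, without a replicate block. Calls used the study's thresholds, |log2FC| of 1 or more with an unadjusted p of 0.01 or less, and p-values were adjusted by Benjamini-Hochberg across every gene in the fit. The fold change of low genes is understated on this scale. The labels do not say that replicates came from separate plants or harvests, so p-values measure the spread between these samples. From 12 to 24 h in D6, same-numbered libraries deviated together (r = 0.201, 0.269 and 0.110), and with the number as a block no call of the group changed there. The rest was done in Python 3.11.15 (pandas 2.3.3, numpy 2.4.6, scipy 1.17.1), with figures in matplotlib 3.10.9.

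The 4 genes, the lists and the tests were chosen with earlier results of these data known. Named genes are the 4, the 3 most like each over the libraries, and, for each auxin family and hour in X2, the called genes with the largest positive and negative log2FC against 0 h, a group mean of 5 FPKM or more and libraries that did not overlap. The auxin list was drawn from the study's own annotation, because the deposited table holds no descriptions and 0 identifiers matched the RefSeq table. Alternatives were size factors, other filters, pseudocounts and thresholds, all libraries in 1 model, a replicate block, limma-voom on the recovered reads and leaving out each library. Those for the listed like genes and the named auxin genes were chosen after seeing the data.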

Additional observations from a re-analysis of the deposited data

Results flagged for a closer look

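The change of GH3.6 from 4 to 12 h after cutting differed between the cultivars by the test of the difference itself. It was lower in D6 than in X2, with an interaction of -2.47 on the log2 scale (SE 0.51, limma, Benjamini-Hochberg adjusted p = 0.0112). All 3 X2 libraries of 12 h lay above all 3 of 4 h, while those of D6 overlapped. With each library left out in turn, the difference ranged from -2.81 to -2.05. Whether tubers of the cultivars differed in handling, age or sampling cannot be told apart from the cultivar.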

How the results depend on the processing

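With each library left out in turn, the log2FC of GH3.6 ranged from -0.57 to 0.19 from 12 to 24 h in X2, from -0.46 to 0.29 from 4 to 12 h in D6 and from -0.024 to 0.37 from 12 to 24 h in D6, and the cultivar difference in its change from 12 to 24 h from -0.075 to 0.69. For SAUR-3228, D6 against X2 at 4 h ranged from -0.035 to 0.33, and at 12 h from -0.21 to 0.63, and the cultivar difference in its change from 4 to 12 h from -0.37 to 0.47. That of SAUR-28254 ranged from -0.54 to 0.069 and was 0.11 with pseudocount 1. None of these was called at any of these settings. The number of the 4 genes called in D6 against X2 at 24 h ranged from 0 to 2, and the number past 2-fold at 24 h against 0 h in X2 from 1 to 3.

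Without the FPKM filter, 4 genes were past 2-fold at 12 h and 4 at 24 h against 0 h in X2, and with a mean FPKM of at least 1 it was 1 at 24 h, since the filter sets how many are tested. With pseudocount 1, 0 of the group were called from 12 to 24 h in D6, where SAUR-28254 had a log2FC of 0.98, and from 4 to 12 h in D6 its log2FC of 0.97 was not called. The number of up-regulated list genes at 4 h against 0 h in X2 was 3 with size factors and 2 with pseudocount 1, and at 24 h it was 1 with a mean FPKM of at least 1, 1 with pseudocount 1, and 1 to 2 with each library left out. SAUR-3227 was called from 4 to 12 h in X2 at an adjusted p of at most 0.05, with all libraries in 1 model and without X2 replicate 3 of 12 h (log2FC -2.12).

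Whether replicate numbers mark a pairing is not stated. The deviations of same-numbered X2 libraries had an r of 0.105 and 0.169 from 12 to 24 h. From 4 to 12 h it was 0.0812, 0.0307 and 0.126. In X2 the replicate block raised the number of the group called from 12 to 24 h to 1 (SAUR-3228, log2FC -1.01 with the block) and from 4 to 12 h to 3. Without X2 replicate 2 of 4 h, whose column name is doubled, the log2FC of GH3.6 from 4 to 12 h in X2 was 2.26 and D6 against X2 at 4 h was 3.77, both called. The remaining planned settings kept the direction and the call of GH3.6 in the comparisons where it was called, other than at 24 h between the cultivars. Depth limits SAUR-3227 and SAUR-28254, whose low groups rest on few reads.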

Other observations

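PGSC0003DMG400013765, an Aux/IAA gene of the list named here after its values were seen, had the largest difference between the cultivars at 4 h among the list genes. Its FPKM at 4 h was 3.08, 5.81 and 4.70 in D6 and 0.0960, 0.182 and 0.158 in X2, and the single D6 library of 0 h had 0.463. By 12 h the D6 libraries had fallen to 0.0808, 0.157 and 0.0886. It passed the FPKM filter at 4 h only through the D6 libraries and was picked for this difference, so no test of it is given. The ARF gene PGSC0003DMG400031888, also named after its values were seen, had a log2FC of D6 against X2 of 2.93, 1.73 and 1.12 at 4, 12 and 24 h, given as a description.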
